A study of Mus musculus with 9 samples.

Results

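A set of 3 lines of mouse germ pluripotent stem cells was compared with 4 lines of germ stem cells, gene by gene, on 7 of the 9 bead arrays of the series. The germ stem cells (GSC) are cells of the germline whose potency the labels give as unipotent, and each of the 4 lines was measured on 1 array. The germ pluripotent stem cells (gPS) are clonal lines sorted on GFP fluorescence, labelled as pluripotent, and each of the 3 lines was measured on 1 array. Strain, age, passage, the GFP construct and the GSC line from which a gPS line came are not given in the sources used here, and no treatment is named for either group. The members of the comparison are the 9488 genes tested, each represented by 1 probe, of which 8750 have a symbol. A pair of embryonic stem cell (ESC) arrays, which the labels call a duplicate, enters the normalization, the detection filter and the choice of probe. It also enters the estimate of the spread and is otherwise quoted only as a reference level.

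Germline stem cells renew themselves and give rise to sperm, whereas pluripotent cells can form all tissues of the body and resemble the early embryo before gastrulation. The transcription factors that mark both states are well known, and they are left aside here in favour of the signalling, surface, metabolic, cytoskeletal and chromatin genes around them. Cells in the pluripotent state divide rapidly, depend on amino acid and one-carbon metabolism for nucleotides and methyl groups, grow as an epithelium-like colony and respond to FGF. Male germ cells are known for X-linked gene families and for tissue-restricted copies of common enzymes and structural proteins.

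Before normalization the arrays had median signals of 83.6 to 101, and 9871 to 11813 probes per gPS or GSC array had a detection p, the chance of such a signal among the array's own negative controls, under 0.01. The labels were checked on 1 gene per state. Nanog, a transcription factor of pluripotent cells, stood at 10.35, 10.37 and 10.48 on gPS 1 to 3 and 4.57, 4.42, 4.42 and 4.44 on GSC 1 to 4, in normalized log2 signal. Dazl, an RNA-binding protein of germ cells, stood at 12.48, 12.53, 12.38 and 12.01 on GSC 1 to 4 and 5.10, 4.73 and 4.87 on gPS 1 to 3. Each was detected on every array of the group it marks and on no array of the other.

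GSC 1 and GSC 3 were nearly the same (Pearson r = 0.995 over probes, SD of their difference 0.213, against 0.338 for the ESC pair). If they are not separate lines, the GSC group holds fewer lines than arrays. These arrays also carried more fibroblast and feeder cell markers: the summed linear signal of the 21 tested of 29 listed markers was 12074 on GSC 1 and 11081 on GSC 3, but 4608 on GSC 2, 3460 on GSC 4 and 4443 to 6727 on the gPS arrays. Among GSC arrays the sums of the blood, endoderm, neural ectoderm and trophoblast lists were also highest on GSC 1 and GSC 3. Those of the Sertoli and endothelial lists were lowest there, and the mesoderm sum was nearly equal on GSC 1 and GSC 2. Some genes whose values were higher on GSC 1 and GSC 3, such as the homeobox gene Hoxc9, are pointed out below. Others, such as Clic6 and Rragd, show it only in their values per array. Nothing in the labels says that replicate lines are separate cultures of separate animals, so the p-values measure the spread between these arrays.

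Of the 9488 genes, 2426 (25.6%) rose in gPS and 2920 (30.8%) fell at an adjusted p under 0.05 (56.3% in either direction), with a median change over all genes of -0.07 on the log2 scale. The gPS and GSC values of 55.7% of genes did not overlap. These shares depend on the scaling: with each array scaled to its median in place of quantile normalization, the median change of all genes was -0.39, and 1539 rose while 4048 fell (27.5% and 72.5% of the calls, against 45.4% and 54.6%). Counts per family below are therefore to be read against the shares over all genes, and a list whose count of rises or falls moved by over 1.5 times with median scaling, or with GSC 1 and GSC 3 both left out, has those counts in brackets. The latter setting was added after seeing the data.

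A gene was put in the switched-on class when every gPS array and no GSC array detected its probe, and no other probe of the gene was detected in GSC. The reverse pattern defined the switched-off class. By this rule 183 genes (1.93% of those tested) were switched on and 558 (5.88%) were switched off. Because detection chose them, their differences are described without a test. All 183 switched-on genes were also among the called rises. Of the switched-off genes, 516 were among the called falls and 42 were not called, and the gPS and GSC values of 522 did not overlap. Among the remaining called genes, 3524 were detected on all 7 arrays and are called graded, with 1740 rises (18.3% of genes tested) and 1784 falls (18.8%). The other 503 rises (5.3%) and 620 falls (6.53%) were detected on fewer than 7 arrays without meeting the switch rule and are called partly detected. Their sizes are given as bounds too.

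The size of a switch can only be bounded. A lower bound on each was computed by setting the silent arrays to the dimmest normalized value that was detected on that array (4.75 to 5.22), or to the gene's own value where higher. The bound reached 2-fold for 132 of 183 genes switched on, 8-fold for 31 and 32-fold for 4. It reached 2-fold for 180 of 558 genes switched off, 8-fold for 35 and 32-fold for 9, and 44 of the switched-off genes had no bound above 1. Sizes of graded changes are measured: the median fold of called graded genes was 2.02, and 226 rises and 167 falls reached 4-fold. The class also depends on the detection threshold, and 59 genes switched on and 175 switched off kept their class at detection p thresholds of 0.05, 0.01 and 0.001. At the dim end the class holds genes used by every dividing cell, such as Pcna, the clamp of DNA polymerase, and Rpl21, a ribosomal protein (at least 1.36-fold and 1.71-fold, both chosen after their values were seen). For these genes "switched" describes the probe and its detection limit.

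**Figure D1:**
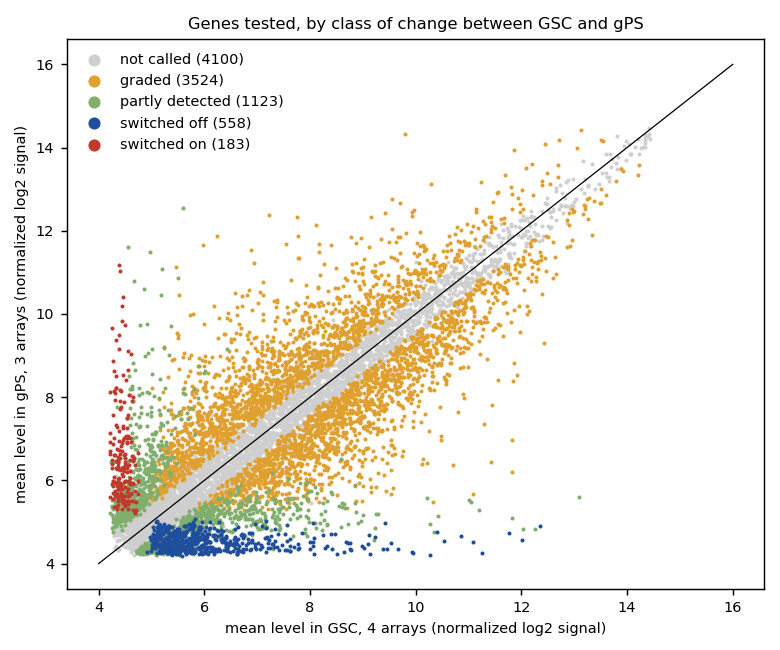
Mean normalized log2 signal of each of the 9488 genes tested in GSC (x axis, 4 arrays) and gPS (y axis, 3 arrays), with the line of equality. The 183 switched-on and 558 switched-off genes sit along the lower ends of the axes, and the 3524 graded genes lie on both sides of the line.

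The ESC arrays, which the class rule did not use, detected the switched-on genes in most cases: 148 of 183 (80.9%) on both ESC arrays and 18 on none. Of the 558 switched-off genes, 17 (3.05%) were detected on both ESC arrays and 495 on none. Over all genes tested, 75.7% were detected on both and 17.2% on none. The detection filter counted the ESC arrays, so genes detected on that pair alone are among those tested.

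Among genes switched on, secreted factors and signalling proteins formed a first group. Changes given as a rise or fall "by" a value are on the log2 scale throughout. Fgf17, a ligand of the FGF8 subfamily of fibroblast growth factors, stood at 9.68, 10.48 and 9.30 on gPS 1 to 3 and 4.70, 4.41, 4.29 and 4.34 on GSC 1 to 4, at least 31.4-fold higher in gPS. Its probe was below detection in every GSC line, and the highest gPS value was on line 2. Dusp4, a phosphatase that inactivates ERK and is itself induced by ERK signalling, stood at 8.03, 7.46 and 6.42 on gPS 1 to 3 and 4.47, 4.41, 4.70 and 4.26 on GSC 1 to 4, at least 5.49-fold higher. Fgfbp1, which carries FGFs out of the matrix, and Fgf15, a hormone-like FGF, were at least 3.62-fold and 1.66-fold higher. Spry4, a feedback inhibitor of receptor tyrosine kinases, was at least 9.07-fold higher in gPS (adjusted p = 1.33e-05), and Etv4, an ETS factor induced by FGF, was graded and rose by 2.92 (SE 0.54, adjusted p = 9.20e-04). In the list of the FGF, EGF and ERK pathway, 29 genes were tested, of which 13 rose, 3 fell and 13 did not pass, and 5 were switched on, Fgf4 of the pluripotency list among them. The 3 falls were Rps6ka3 by 1.47, Fgfrl1 by 0.84 and Il17rd by 0.74, a kinase downstream of ERK, an FGF receptor without a kinase domain and an inhibitor of FGF signalling.

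Other signalling genes in the switched-on class belonged to several pathways. Foxh1, a partner of SMAD proteins in Nodal signalling, was at least 4.93-fold higher, and Stat4, a signal transducer of cytokine receptors, at least 2.81-fold. Gna14, an alpha subunit of the Gq class, stood at 5.98, 6.74 and 5.08 on gPS 1 to 3 and 4.27, 4.22, 4.39 and 4.39 on GSC 1 to 4. Ppp1r1a, an inhibitor of protein phosphatase 1 that is active when phosphorylated by protein kinase A, was at least 12.6-fold higher. Tnfrsf19, a receptor of the tumour necrosis factor family, and Robo4, a receptor of the Roundabout family, were at least 2.18-fold and 3.74-fold higher.

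Some transporters, channels and other membrane proteins were switched on. Folr1, a folate receptor anchored in the membrane, stood at 9.47, 8.96 and 7.43 on gPS 1 to 3 and 4.34, 4.26, 4.32 and 4.21 on GSC 1 to 4, at least 13.7-fold higher. Aqp3, a channel for water and glycerol, stood at 7.15, 9.14 and 8.93 on gPS 1 to 3 and 4.52, 4.51, 4.63 and 4.41 on GSC 1 to 4, with gPS 1 below the other gPS lines. Kcnk1, a potassium channel with paired pore domains, was at least 12.8-fold higher, Slc1a3, a glutamate transporter, at least 8.33-fold, and Chrna9, a nicotinic receptor subunit, at least 4.24-fold. The carbonic anhydrases Car2 and Car4, which interconvert carbon dioxide and bicarbonate in the cytosol and at the cell surface, were at least 10.3-fold and 8.49-fold higher. Car2 stood at 7.69, 8.76 and 8.19 on gPS 1 to 3 and 4.30, 4.26, 4.43 and 4.31 on GSC 1 to 4.

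Epithelial and cytoskeletal genes were also switched on. Cldn6, a claudin of tight junctions, stood at 9.32, 9.64 and 8.41 on gPS 1 to 3 and 4.59, 4.78, 4.32 and 4.55 on GSC 1 to 4, at least 19.3-fold higher. Krt42, a type I keratin, was at least 9.9-fold higher, Elf3, an ETS factor of epithelia, at least 7.51-fold, and Pkp3, a desmosome protein, at least 1.57-fold. Stmn2, which destabilises microtubules, varied most among the gPS lines of the 20 switched-on genes with the highest gPS mean, at 9.41, 5.55 and 8.18 on gPS 1 to 3 and 4.34, 4.26, 4.63 and 4.37 on GSC 1 to 4. Its value on gPS 2 was far below that on gPS 1. Spink1, a secreted inhibitor of trypsin, also stood lower on gPS 2, at 9.44, 6.82 and 8.43 on gPS 1 to 3 and 4.32, 4.30, 4.35 and 4.37 on GSC 1 to 4.

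Enzymes completed the class. Idh2, the mitochondrial isocitrate dehydrogenase that makes NADPH, stood at 7.58, 8.37 and 8.19 on gPS 1 to 3 and 4.67, 4.40, 4.80 and 4.45 on GSC 1 to 4, at least 9.17-fold higher. Pcyt1b, an isoform of the enzyme that activates phosphocholine for phosphatidylcholine synthesis, was at least 9.97-fold higher, and Urah, which hydrolyses a product of urate oxidation, at least 18.4-fold. Kdm4c, a demethylase of histone H3, was at least 8.29-fold higher, at 7.36, 8.17 and 8.17 on gPS 1 to 3 and 4.58, 4.52, 4.57 and 4.87 on GSC 1 to 4. Gtsf1l, a zinc finger protein related to a piRNA pathway factor, was at least 28.3-fold higher. The remaining genes among the 20 were Pnma2, a protein derived from a retrotransposon Gag gene, and Kndc1, a brain-enriched guanine nucleotide exchange factor, at least 9.85-fold and 8.99-fold higher.

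**Figure D2:**
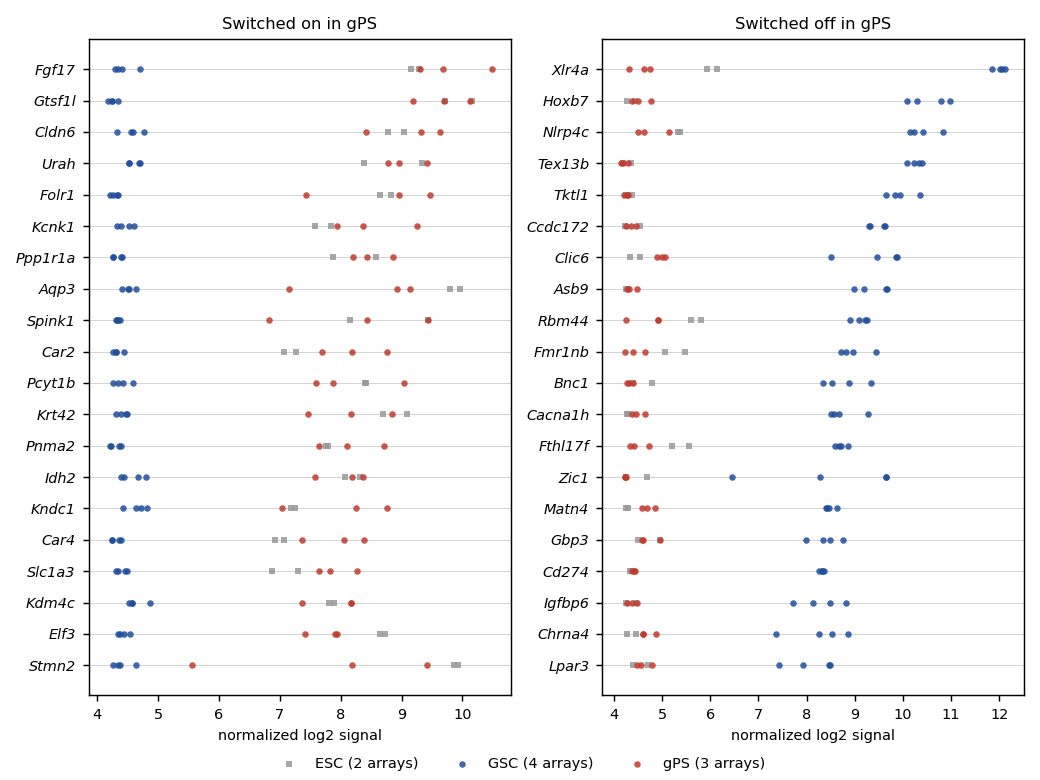
Normalized log2 signal per array (x axis) of the 20 switched-on genes with the highest gPS mean and the 20 switched-off genes with the highest GSC mean outside the pluripotency and germ cell lists. Points are single arrays (GSC blue, gPS red, ESC grey squares), and in no row do the GSC and gPS points overlap. Zic1 spreads widely over the GSC arrays and Stmn2 over the gPS arrays.

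The switched-off class was larger, and several of the genes with the highest GSC levels in it were X-linked. Xlr4a, a member of the lymphocyte-regulated Xlr family, stood at 11.84, 12.12, 12.02 and 12.06 on GSC 1 to 4 and 4.75, 4.61 and 4.31 on gPS 1 to 3, at least 117-fold lower in gPS. The 4 GSC values lay close together and all gPS values were below detection, while both ESC arrays detected the gene. Tex13b, a testis-expressed gene, stood at 10.39, 10.09, 10.23 and 10.33 on GSC 1 to 4 and 4.18, 4.29 and 4.15 on gPS 1 to 3, at least 34.8-fold lower. Tktl1, a transketolase-like enzyme, stood at 9.84, 10.36, 9.94 and 9.65 on GSC 1 to 4 and 4.27, 4.21 and 4.28 on gPS 1 to 3, at least 27.9-fold lower. Asb9, which recruits targets such as creatine kinase to a ubiquitin ligase, Fmr1nb, a testis-expressed neighbour of Fmr1, and Fthl17f, a ferritin heavy chain-like gene, were at least 18.8-fold, 14.4-fold and 11.9-fold lower. Of the MAGE, Xlr and related germ line families, 28 genes were tested, of which 3 rose, 17 fell and 8 did not pass (1 rose and 17 fell without GSC 1 and GSC 3), and 12 were switched off. Mageb4, a MAGE family gene, was detected on 1 gPS array and so was not counted as switched, yet it was at least 134-fold lower (13.03, 12.58, 12.77 and 10.69 on GSC 1 to 4 and 4.33, 4.99 and 5.16 on gPS 1 to 3). The probes of Xlr and MAGE genes can share signal with near-identical copies, so the identity of the copy is uncertain. Rhox5, a homeobox gene on the X chromosome, went the other way, at 9.67, 7.18 and 5.87 on gPS 1 to 3 and 4.68, 4.39, 4.72 and 4.44 on GSC 1 to 4, and its gPS lines differed widely.

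Of 15 HOX genes tested, 7 fell, none rose and 8 did not pass. Hoxb7 stood at 10.79, 10.28, 10.97 and 10.09 on GSC 1 to 4 and 4.38, 4.50 and 4.76 on gPS 1 to 3, at least 42-fold lower in gPS. Hoxb4 and Hoxb6 were switched off as well, at least 5.33-fold and 4.53-fold lower, and Hoxb5 and Hoxb2, each still detected on 2 gPS arrays, were at least 6.74-fold lower in gPS (adjusted p = 2.96e-05) and at least 5.24-fold lower in gPS (adjusted p = 5.20e-06). These genes, which set position along the body axis, lie in 1 cluster on chromosome 11. Hoxc9, on chromosome 15, stood at 8.56, 5.33, 8.61 and 5.08 on GSC 1 to 4 and 4.62, 4.57 and 4.39 on gPS 1 to 3, so its high values were those of GSC 1 and GSC 3. With both left out it fell by 0.68, against 2.37 with all arrays, and was still called. It was not called without either alone, with the pair averaged or without any 1 of the gPS arrays. Among other developmental factors, Zic1, a zinc finger factor of neural tissue, stood at 9.64, 8.28, 9.65 and 6.44 on GSC 1 to 4 and 4.22, 4.26 and 4.22 on gPS 1 to 3, again highest on GSC 1 and GSC 3. Foxf1, a forkhead factor of lateral mesoderm, was at least 7.26-fold lower, Bnc1, a zinc finger protein of keratinocytes and germ cells, at least 12.3-fold, and Barx1, a homeobox factor, at least 3.52-fold. Foxf1 stood at 8.20, 8.19, 8.35 and 7.27 on GSC 1 to 4 and 4.42, 4.26 and 4.37 on gPS 1 to 3.

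Genes of the interferon response gave 10 members of the switched-off class. Cd274, the ligand of the checkpoint receptor PD-1, stood at 8.32, 8.25, 8.36 and 8.33 on GSC 1 to 4 and 4.44, 4.38 and 4.42 on gPS 1 to 3, at least 9-fold lower. Gbp3 and Igtp, interferon-induced GTPases, were at least 9.52-fold and 5.54-fold lower, and Irf8, a transcription factor of the interferon regulatory family, at least 3.02-fold. Ifi27, an interferon-induced mitochondrial protein detected on 2 gPS arrays, stood at 10.95, 10.72, 11.05 and 11.35 on GSC 1 to 4 and 6.31, 5.15 and 5.11 on gPS 1 to 3. Of 46 genes tested in the list, 3 rose, 24 fell and 19 did not pass, with a median change of -0.78. The rises were Ifitm2 (by 3.08, SE 0.50, adjusted p = 4.02e-04) and Ifitm3 (by 2.36, SE 0.81, adjusted p = 0.0284), membrane proteins that block viral entry, the latter no longer called without GSC 2, GSC 4, gPS 1 or gPS 2, and Ddx58, the RNA sensor RIG-I, which was switched on. The kinase Jak2, which transmits cytokine signals, was switched off, at 7.93, 7.74, 7.88 and 7.83 on GSC 1 to 4 and 5.19, 4.47 and 4.55 on gPS 1 to 3, as was Jak1, whose values of 4.91, 5.24, 5.13 and 4.96 on GSC 1 to 4 and 4.32, 4.36 and 4.43 on gPS 1 to 3 lay near the detection limit.

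Blood and macrophage markers leaned down as well and are given beside them. Of 8 tested of 19 listed, 1 rose, 5 fell and 2 did not pass (1 rose and 2 fell without GSC 1 and GSC 3), and the sum of their linear signal was 582 to 3841 in GSC and 1456 to 2165 in gPS, ranges that overlap. Lyz1 and Lyz2, near-identical lysozymes of phagocytes whose signal may be shared, were at least 23.4-fold lower in gPS (adjusted p = 1.83e-04) and at least 10.7-fold lower in gPS (adjusted p = 4.50e-04), and their GSC values were highest on GSC 1 and GSC 3 (11.22, 8.23, 11.26 and 10.13 for Lyz1 on GSC 1 to 4). Of the 8 tested markers, 3 were detected on all GSC arrays and 1 on all gPS arrays. Among the untested markers with probes, Ptprc, Itgam, Tyrobp, Aif1 and Hba-a1 were detected on no GSC or gPS array. Cd52 and C1qa were each detected on 1 GSC array and no gPS array. The part of such cells in the interferon result was not tested. Fewer cells of a type and less RNA per cell cannot be told apart in these bulk arrays.

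Channels gave 10 members of the switched-off class, and some receptors were in it as well. Clic6, an intracellular chloride channel protein, stood at 9.85, 8.51, 9.87 and 9.45 on GSC 1 to 4 and 5.06, 4.99 and 4.90 on gPS 1 to 3, at least 19.4-fold lower. Cacna1h, a low-voltage calcium channel, stood at 8.67, 8.56, 8.51 and 9.28 on GSC 1 to 4 and 4.65, 4.37 and 4.47 on gPS 1 to 3, at least 12.2-fold lower. Chrna4, a nicotinic receptor subunit, and Lpar3, a receptor for lysophosphatidic acid coupled to G proteins, were at least 8.6-fold and 7.62-fold lower. Of 41 channel genes tested, 5 rose, 19 fell and 17 did not pass, and 10 were switched off against 3 switched on (Kcnk1, Chrna9 and Ano9). Of 45 G-protein-coupled receptors tested, 14 rose, 7 fell and 24 did not pass, and 1 was switched off against 2 switched on. Secreted and matrix proteins included Igfbp6, a binding protein of insulin-like growth factors, at 8.13, 8.83, 8.48 and 7.72 on GSC 1 to 4 and 4.26, 4.37 and 4.49 on gPS 1 to 3, and Matn4, a matrilin, at least 8.85-fold and 10.1-fold lower. The remaining genes of the 20 were Nlrp4c, an NLR family protein of germ cells and oocytes, Ccdc172, a coiled-coil protein, and Rbm44, an RNA-binding protein of germ cells, at least 38.4-fold, 19.9-fold and 15.7-fold lower.

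Chromatin regulators were split between the classes. Cbx8, a chromodomain subunit of Polycomb repressive complex 1, stood at 7.31, 8.06, 7.31 and 7.82 on GSC 1 to 4 and 4.44, 4.36 and 4.44 on gPS 1 to 3, at least 5.59-fold lower. Ezhip, an X-linked germ cell protein that inhibits the EZH2 methyltransferase, was at least 6.19-fold lower, at 7.39, 8.14, 7.30 and 8.27 on GSC 1 to 4 and 4.84, 4.31 and 4.28 on gPS 1 to 3. Pcgf5, a RING finger partner of that complex, fell by 3.04 (SE 0.16, adjusted p = 1.11e-07), and Bmi1, another, was at least 3.03-fold lower in gPS (adjusted p = 6.81e-06). Cbx7, another chromodomain subunit, rose by 2.00 (SE 0.21, adjusted p = 2.11e-05), and L3mbtl3, a reader of methylated histones, was switched on. Of 25 Polycomb genes tested, 10 rose, 8 fell and 7 did not pass (5 rose and 10 fell with median scaling). Falls then outnumbered rises, as they did over all genes with that scaling (1539 rose and 4048 fell). Histone genes leaned up: of 47 tested, 27 rose, 1 fell and 19 did not pass (20 rose and 4 fell with median scaling), with a median change of 0.73. Examples are H2ac21 (by 2.41, SE 0.36, adjusted p = 2.42e-04) and H2ax, the variant phosphorylated at DNA breaks (by 1.72, SE 0.35, adjusted p = 0.0017). Histone genes are near-identical to each other, so signal may be shared among their probes, and most of their messages lack the poly(A) tail that amplification kits commonly prime on.

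The largest graded rises outside the pluripotency list included genes of metabolism and of the cell surface. Ooep, a protein of the maternal complex in oocytes and early embryos, stood at 11.94, 12.22 and 11.46 on gPS 1 to 3 and 6.42, 6.16, 6.74 and 5.64 on GSC 1 to 4 and rose 49.7-fold (log2 change 5.64, SE 0.26, adjusted p = 5.99e-08). Ckb, the brain isoform of creatine kinase that buffers ATP, stood at 13.28, 12.11 and 11.77 on gPS 1 to 3 and 7.27, 7.64, 7.41 and 6.60 on GSC 1 to 4 and rose 35.6-fold (log2 change 5.15, SE 0.35, adjusted p = 7.76e-07). Slc7a3, a carrier of arginine and lysine, stood at 10.45, 10.64 and 10.28 on gPS 1 to 3 and 5.41, 5.27, 5.41 and 5.99 on GSC 1 to 4 and rose 30.6-fold (log2 change 4.93, SE 0.20, adjusted p = 2.07e-08). In these 3 genes the lowest gPS array lay above the highest GSC array. Ccne1, the cyclin that drives entry into S phase, rose 18.6-fold, Mdk, a heparin-binding growth factor, 16.2-fold, and Gja1, the gap junction protein connexin 43, 17.6-fold, although Gja1 was already higher on GSC 1 and GSC 3 (8.83, 6.51, 8.91 and 5.89 on GSC 1 to 4). Gpd2, the mitochondrial glycerol phosphate dehydrogenase, Sfxn1, a mitochondrial serine carrier, and Bcat2, a transaminase of branched-chain amino acids, rose 16.5-fold, 19.5-fold and 15.8-fold. Snrpn, an imprinted gene of the spliceosome, rose 17.2-fold, Tubb2b, a beta tubulin, 23.9-fold, Wfdc2, a secreted protein with a whey acidic protein domain, 19-fold, and Slc7a7, a carrier of basic and neutral amino acids, 15.5-fold. Echdc2 and Tmem254a completed the 15, at 16-fold and 15.1-fold.

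The largest graded falls included regulators of growth and stress signalling. Tsc22d3, the glucocorticoid-induced leucine zipper, stood at 11.07, 10.98, 11.03 and 11.25 on GSC 1 to 4 and 5.60, 5.98 and 5.42 on gPS 1 to 3, a log2 fall of 5.42 (SE 0.17, adjusted p = 3.41e-09). Dbndd2, a dysbindin domain protein, averaged 11.82 ± 0.23 in GSC (SD, n = 4) and 6.98 ± 0.02 in gPS (n = 3) and fell by 4.84 (SE 0.16, adjusted p = 5.08e-09). Rragd, a GTPase that links amino acids to mTORC1, stood at 10.71, 9.47, 10.68 and 9.96 on GSC 1 to 4 and 7.26, 5.51 and 6.48 on gPS 1 to 3 and fell by 3.79 (SE 0.40, adjusted p = 1.89e-05), with gPS 2 the lowest. Pik3r3, a regulatory subunit of PI 3-kinase, fell by 3.71, Camk2n1, an inhibitor of CaM kinase II, fell by 3.71, Dapk2, a death-associated kinase, fell by 3.49, and Dgat2, the final enzyme of triglyceride synthesis, fell by 3.51. Gstm5, a glutathione transferase, fell by 3.62, Large2, a glycosyltransferase of dystroglycan, fell by 3.94, Pdzrn3, a ubiquitin ligase, fell by 3.84, and Gkap1, an anchoring protein of cGMP-dependent kinase expressed in testis, fell by 3.41. Phf13, a reader of methylated H3 lysine 4, fell by 3.46, Zcwpw1, a histone reader of meiotic cells, fell by 3.44, Zmym3, a zinc finger protein on the X chromosome, fell by 3.63, and Lrrc75a fell by 3.75. These genes remained detected on all 3 gPS arrays.

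**Figure D3:**
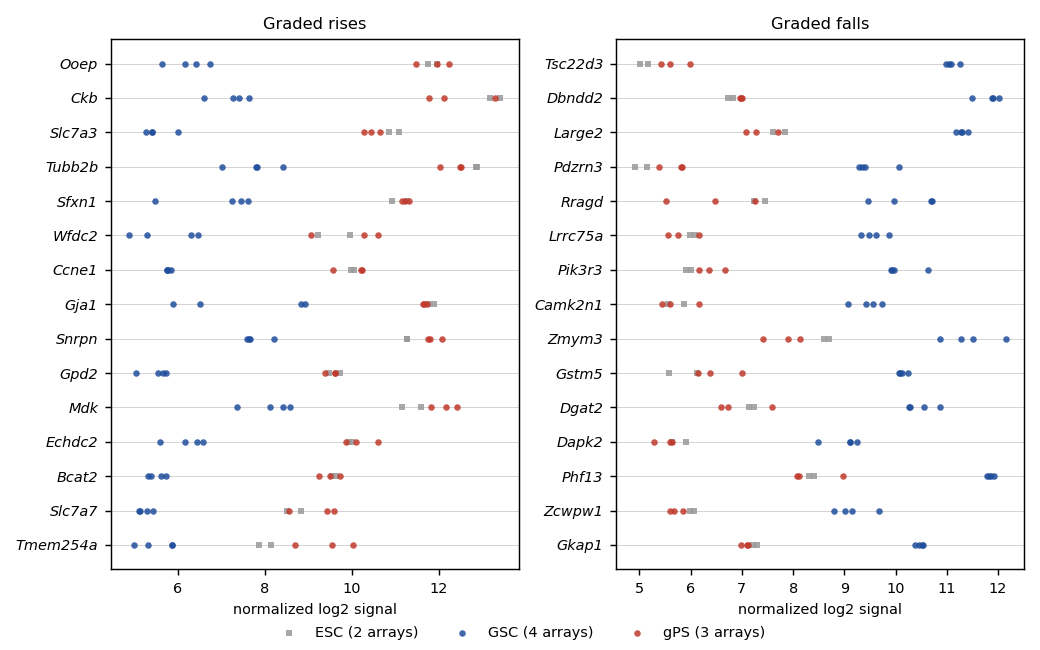
Normalized log2 signal per array (x axis) of the 15 largest graded rises and the 15 largest graded falls whose groups do not overlap, outside the pluripotency and germ cell lists. Points are single arrays (GSC blue, gPS red, ESC grey squares). The rises Gja1 and Sfxn1 and the fall Rragd show the widest spread within a group, whereas Dbndd2 and Gkap1 are nearly constant within each.

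Among lists with at least 8 tested members outside the pluripotency list, amino acid and one-carbon metabolism had the highest shares of rising members. Of 28 amino acid and polyamine enzymes tested, 21 rose, 1 fell and 6 did not pass, a share of 75% against 25.6% of all genes. Bcat1, the cytosolic partner of Bcat2, stood at 11.27, 9.74 and 11.34 on gPS 1 to 3 and 4.92, 4.49, 4.79 and 4.44 on GSC 1 to 4, at least 59.4-fold higher. Ass1, an enzyme of arginine synthesis, rose 10.3-fold (log2 change 3.36, SE 0.39, adjusted p = 3.91e-05), and Odc1 and Srm, which make putrescine and spermidine, rose by 2.97 (SE 0.18, adjusted p = 4.10e-07) and 2.86 (SE 0.29, adjusted p = 1.39e-05). Got1, the cytosolic aspartate transaminase, was switched on, at 7.31, 6.87 and 6.88 on gPS 1 to 3 and 4.51, 4.59, 4.58 and 4.44 on GSC 1 to 4. Arg2, a mitochondrial arginase, was the 1 gene that fell, with 3 GSC arrays and no gPS array above detection, so that its size has no bound, and the call was lost without gPS 2 or gPS 3. Of 14 genes of serine, glycine and one-carbon metabolism, 11 rose, 0 fell and 3 did not pass (7 rose and 3 fell with median scaling). Both enzymes that convert homocysteine to cysteine, Cbs and Cth, were switched on (Cth at 6.59, 6.83 and 5.95 on gPS 1 to 3 and 4.35, 4.47, 4.32 and 4.31 on GSC 1 to 4). Mthfd1, which interconverts folates, and Gldc, of the glycine cleavage system, rose by 2.52 (SE 0.21, adjusted p = 3.54e-06) and 2.16 (SE 0.18, adjusted p = 4.47e-06).

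Other metabolic lists held both directions. Of 42 genes of nucleotide synthesis, 23 rose, 5 fell and 14 did not pass (15 rose and 9 fell with median scaling, 17 rose and 3 fell without GSC 1 and GSC 3). Pnp and Upp1, phosphorylases that salvage purines and pyrimidines, rose by 3.34 (SE 0.21, adjusted p = 5.12e-07) and 3.17 (SE 0.46, adjusted p = 1.76e-04), Rrm2, a subunit of ribonucleotide reductase, by 3.16, and Dut, which removes dUTP, was at least 5.45-fold higher in gPS (adjusted p = 1.82e-06). Ampd2, an AMP deaminase, fell by 2.03. Of 28 genes of glycolysis and the pentose phosphate pathway, 13 rose, 6 fell and 9 did not pass (12 rose and 10 fell with median scaling). Pygl, liver glycogen phosphorylase, was at least 33.8-fold lower in gPS (adjusted p = 6.08e-08). Of 70 ribosome biogenesis genes, 32 rose, 12 fell and 26 did not pass (29 rose and 7 fell without GSC 1 and GSC 3). Of 52 genes of oxidant defence, 25 rose, 13 fell and 14 did not pass (16 rose and 15 fell with median scaling). Within the latter Gsta4, a glutathione transferase for lipid aldehydes, rose by 3.56 (SE 0.32, adjusted p = 6.14e-06), while Txnip, an inhibitor of thioredoxin, fell by 2.70 (SE 0.41, adjusted p = 2.48e-04). Of 40 dehydrogenases of aldehydes, alcohols and steroids, 18 rose, 8 fell and 14 did not pass, with Dhrs7 (by 3.46) the largest rise. Lipid lists did not lean up in the same way. Of 18 genes of cholesterol synthesis, 2 rose, 5 fell and 11 did not pass (2 rose and 8 fell with median scaling). Of 36 genes of fatty acid oxidation and peroxisomes, 9 rose, 14 fell and 13 did not pass (4 rose and 20 fell with median scaling, 5 rose and 12 fell without GSC 1 and GSC 3). Of 39 genes of fatty acid and glycerolipid synthesis, 15 rose, 11 fell and 13 did not pass (9 rose and 18 fell with median scaling).

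Cadherins and actin regulators leaned up, while other junction and cytoskeleton families were mixed or leaned down. Of 11 cadherin, desmosome and catenin genes tested, 7 rose, 0 fell and 4 did not pass, among them Pkp2, another desmosome plakophilin (by 1.67, SE 0.24, adjusted p = 1.60e-04). Of 21 claudins and tight junction proteins, 8 rose, 4 fell and 9 did not pass (5 rose and 7 fell with median scaling). With that scaling falls also outnumbered rises over all genes (1539 rose and 4048 fell). Cldn4, a claudin, was at least 28.2-fold higher in gPS (adjusted p = 1.00e-07). Of 50 actins and actin regulators, 22 rose, 6 fell and 22 did not pass. Acta2, smooth muscle actin, stood at 10.76, 10.34 and 9.69 on gPS 1 to 3 and 7.57, 7.95, 7.46 and 5.06 on GSC 1 to 4 and rose by 3.25 (SE 0.58, adjusted p = 7.14e-04), and Actg2 and Acta1, the enteric and skeletal muscle actins, were switched on. Ezr, which links actin to the membrane, rose by 2.35 (SE 0.15, adjusted p = 4.62e-07), and Actn2, a muscle actinin, was at least 6.65-fold lower in gPS (adjusted p = 4.55e-06). Rises and falls numbered 1 and 3 of 7 connexins and pannexins, 5 and 6 of 16 tubulins, 5 and 7 of 18 myosins and 7 and 7 of 24 kinesins (3 and 12 with median scaling, 4 and 5 without GSC 1 and GSC 3). Among 20 intermediate filament genes, 10 rose, 6 fell and 4 did not pass: Krt8 was at least 9.06-fold higher in gPS (adjusted p = 4.57e-05), Krt17 was at least 6.84-fold higher in gPS (adjusted p = 3.87e-05), and Krt12, Krt24 and Krt27 were switched off. Acta2 is also a fibroblast marker. In that list of 21 tested genes 4 rose, 4 fell and 13 did not pass (2 rose and 5 fell with median scaling, 9 rose and 4 fell without GSC 1 and GSC 3). Dcn, a matrix proteoglycan of fibroblasts, was at 5.71, 5.58 and 5.06 on gPS 1 to 3 and 10.32, 5.89, 10.18 and 5.72 on GSC 1 to 4 and did not pass the test. In the other cell type lists rises and falls numbered 6 and 1 of 12 trophoblast markers (5 and 0 without GSC 1 and GSC 3), 5 and 2 of 9 Sertoli markers (2 and 3 with median scaling), 3 and 0 of 8 endothelial markers (3 and 2 with median scaling), 2 and 1 of 9 endoderm markers (2 and 0 with median scaling, 4 and 0 without GSC 1 and GSC 3), 1 and 2 of 5 mesoderm markers and 3 and 3 of 6 neural markers (1 and 3 with median scaling). No Leydig cell marker passed the detection filter.

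Further lists with at least 8 tested members and a high share of falls were those of cilia, zinc finger genes, surface proteins and small RNA pathways. Of 34 genes of the cilium and axoneme, 3 rose, 21 fell and 10 did not pass (1 rose and 24 fell with median scaling), against a background of 30.8% falling. The falls were spread over intraflagellar transport (Ift140 by 1.88, Ift81 by 1.81) and the BBSome (Bbs4 by 1.62), and Nphp4, of the transition zone, was at least 4.51-fold lower in gPS (adjusted p = 1.49e-04), and a single member was switched off, Bbs12. Of 16 dyneins and dynactins, 1 rose, 8 fell and 7 did not pass (1 rose and 4 fell without GSC 1 and GSC 3). Of 35 Zscan, Zkscan and Zbtb zinc finger genes, 6 rose, 21 fell and 8 did not pass. Of 28 Tex and Spata genes, 3 rose, 17 fell and 8 did not pass (1 rose and 20 fell with median scaling, 1 rose and 15 fell without GSC 1 and GSC 3). Among 13 Ly6 and other anchored surface proteins, 2 rose, 8 fell and 3 did not pass (1 rose and 8 fell with median scaling), and Ly6g6e was at least 15.1-fold lower in gPS (adjusted p = 1.23e-06). Of 28 genes of small RNA pathways, 7 rose, 15 fell and 6 did not pass (4 rose and 17 fell with median scaling), and 5 were switched off. This list shares piRNA pathway genes with the germ cell list, while Ago2, an Argonaute that cleaves target RNA, rose by 1.55 (SE 0.17, adjusted p = 2.34e-05) and Dicer1, which cuts microRNA precursors, fell by 0.99 (SE 0.16, adjusted p = 4.28e-04).

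The list of insulin, IGF, PI 3-kinase and mTOR genes leaned down in RNA, and signalling itself was not measured. Of 32 genes tested, 5 rose, 16 fell and 11 did not pass (3 rose and 19 fell with median scaling). Igf1r, the receptor for insulin-like growth factors, was at least 5.23-fold lower in gPS (adjusted p = 2.08e-05). Sgk3, a kinase downstream of PI 3-kinase, was at least 11.5-fold lower in gPS (adjusted p = 2.38e-06), although another of its probes did not fall. Mtor, the kinase of both mTOR complexes, fell by 1.53 (SE 0.24, adjusted p = 3.19e-04). Deptor, which binds and inhibits mTOR, rose by 2.05 (SE 0.17, adjusted p = 3.21e-06), as did Igfbp2 by 2.04 (SE 0.33, adjusted p = 3.84e-04). Of 25 sphingolipid genes, 4 rose, 12 fell and 9 did not pass (3 rose and 7 fell without GSC 1 and GSC 3), and Sphk1, a sphingosine kinase, was at least 8.89-fold lower in gPS (adjusted p = 0.00276). Among 28 G-protein subunits and their regulators, 5 rose, 14 fell and 9 did not pass (3 rose and 16 fell with median scaling), and Gnaz, an inhibitory alpha subunit, had the largest fall (2.87). Of 19 ABC transporters, 3 rose, 10 fell and 6 did not pass, and of 18 metal ion carriers, 3 rose, 9 fell and 6 did not pass. Carriers of glucose and monocarboxylates went the other way, and of 12 tested 6 rose, 3 fell and 3 did not pass (5 rose and 1 fell without GSC 1 and GSC 3). The glucose transporters Slc2a3 and Slc2a1 rose by 2.53 (SE 0.23, adjusted p = 6.74e-06) and 2.13 (SE 0.29, adjusted p = 1.07e-04).

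**Figure D4:**
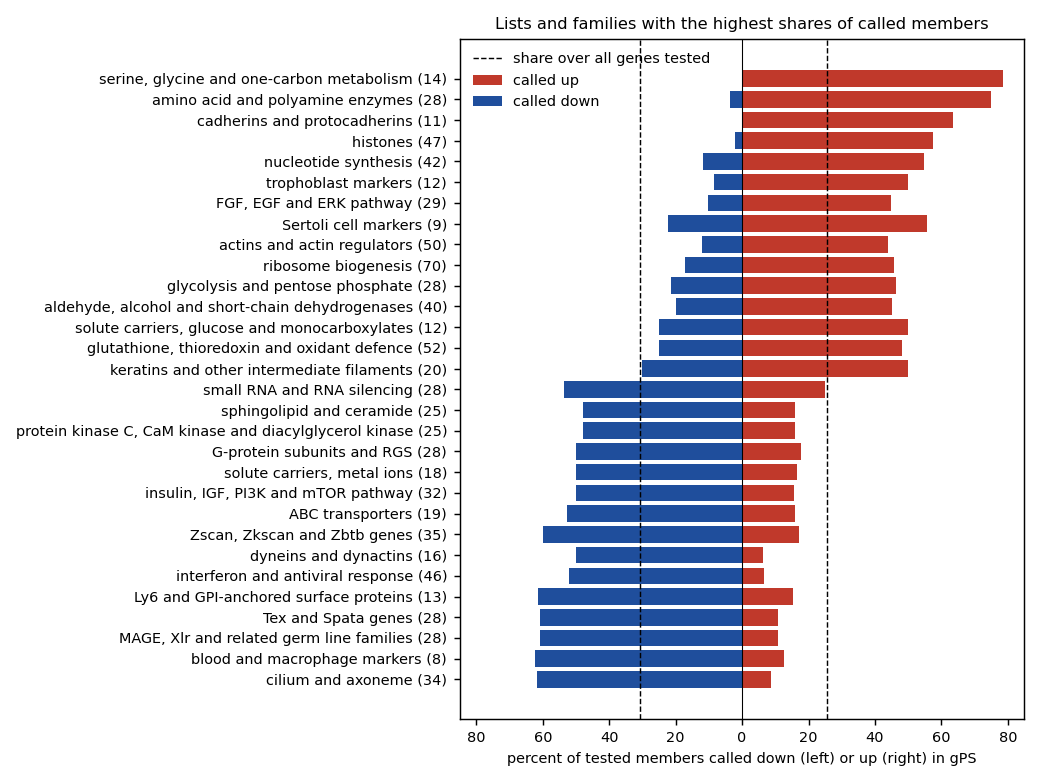
Percent of tested members called down (blue, left) and up (red, right) in gPS for the lists and families of at least 8 tested members with the highest shares outside the pluripotency and germ cell lists, with the number tested in brackets. The dashed lines mark the shares over all genes tested, 30.8% down and 25.6% up; amino acid and one-carbon lists reach the furthest right and cilium genes the furthest left among lists of more than 20 genes.

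Some isoforms of the same enzyme or complex moved in opposite directions. Of 101 isoform families listed, 70 had 2 or more members tested, and 32 held at least 1 member called up and 1 called down. With 25.6% of all genes rising and 30.8% falling, a family of several members can hold both calls without being particular, so the count is a description. In glucose metabolism, Aldoa and Ldha, the common forms of aldolase and lactate dehydrogenase, rose by 2.50 (SE 0.38, adjusted p = 2.58e-04) and 2.84 (SE 0.46, adjusted p = 3.64e-04), while Aldoc, the brain form of aldolase, fell by 1.86 (SE 0.30, adjusted p = 3.47e-04) and Ldhc, the testis form of lactate dehydrogenase, was at least 6.75-fold lower in gPS (adjusted p = 5.07e-05). Tkt, the common transketolase, rose by 2.51 (SE 0.25, adjusted p = 1.25e-05) as Tktl1 was switched off. Stag1 and Smc1a, cohesin subunits of dividing cells, rose by 1.24 and 1.06, against falls of their meiotic counterparts Stag3 and Smc1b, which are on the germ cell list. Eif2s3x, the X-linked gene of a translation initiation factor subunit, rose by 2.74 (SE 0.27, adjusted p = 1.26e-05), while its Y-linked copy Eif2s3y was at least 6.82-fold lower in gPS (adjusted p = 2.63e-06). The Y-linked genes Usp9y, a ubiquitin protease, and Kdm5d, a histone demethylase, were in the switched-off class, with 8.11, 7.72, 7.94 and 8.50 on GSC 1 to 4 and 4.19, 4.24 and 4.29 on gPS 1 to 3 for Usp9y. Of the 5 Y-linked genes tested, Uty, a relative of Kdm6a, did not pass (log2 change -0.13, adjusted p = 0.519), and Zfy1, a zinc finger gene called as a fall, was detected on 2 GSC arrays and no gPS array and lost its call in 12 of 19 alternatives.

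Cell cycle and structural families followed the same form. Ccnd1 and Ccnd3, D-type cyclins, rose by 1.59 (SE 0.22, adjusted p = 1.42e-04) and 1.10 (SE 0.16, adjusted p = 1.60e-04) as Ccnd2 fell by 3.06 (SE 0.33, adjusted p = 2.40e-05). Kdm6a, an H3 lysine 27 demethylase, rose by 1.76 and its relative Kdm6b fell by 0.78, a call lost without gPS 1 or gPS 2. Mbd3, of the NuRD complex, rose by 2.01 and Mbd1, which binds methylated DNA, fell by 1.03. Mcl1, a survival factor, rose by 2.77 (SE 0.14, adjusted p = 1.00e-07) and its relative Bcl2l2 fell by 0.49 (SE 0.17, adjusted p = 0.0313), a call lost without GSC 1, GSC 3, gPS 1 or gPS 2. Alpha tubulins Tuba1a and Tuba1b rose by 3.31 and 1.30, in contrast to the testis forms on the germ cell list. Among connexins Gja1 rose while Gjb2 and Gja4 were switched off, and among tight junction proteins Cldn6 was switched on while Ocln, occludin, was switched off. Among carriers of the Slc7 family, Slc7a3 and Slc7a7 rose while Slc7a5, a carrier of large neutral amino acids, fell by 1.25 (SE 0.20, adjusted p = 3.09e-04). Levels of different probes were not compared, so these are differences in direction and not in the total amount of an enzyme.

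**Figure D5:**
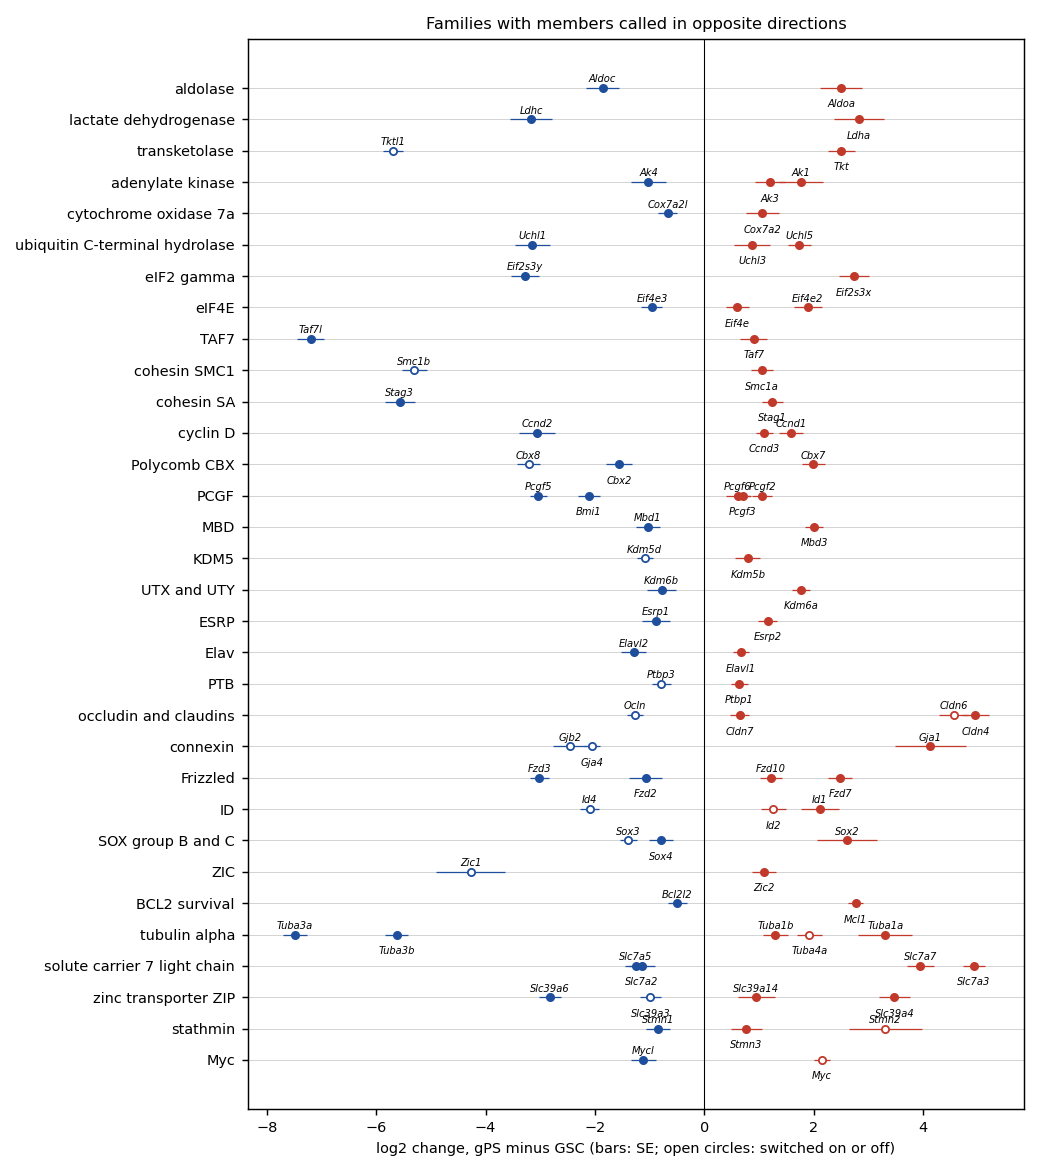
Log2 change from GSC to gPS (x axis, bars are SE) of the called members of the 32 isoform families with calls in both directions. Red marks rises and blue falls, and open circles mark genes of the switched classes, which were chosen by detection; every family shown has points on both sides of 0.

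The share of switched genes differed between chromosomes. Chromosome X held 38 of 558 switched-off genes (6.81%) against 3.09% of all genes tested, and chromosome 7 held 25 of 183 switched-on genes (13.7%) against 7.58%. Ordered by RefSeq position (GRCm38.p6), 33 runs of 2 or more switched-off genes stood side by side among the genes tested, holding 75 of 505 placed genes. They include Xlr4a with Xlr5a, Hoxb7 with Hoxb6, Igtp with Irgm2, and Krt24 with Krt27. Of the switched-on genes, 4 of 167 stood in such pairs. Of the 8746 genes placed on RefSeq, 505 were switched off and 167 switched on, and a larger class forms more runs in any order. The number of runs that class size alone would give was not computed, so the classes are not compared. These shares are descriptions, as neighbouring genes are not independent.

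Promoter composition also differed between the classes. Promoters, from 250 bases before to 50 bases after the annotated start, were taken from RefSeq (GRCm38.p6) and matched 117 of 183 switched-on and 403 of 558 switched-off genes. Where a gene had several starts the first listed was used. The ratio of observed to expected CpG had a median of 0.49 in switched-on genes, 0.70 in switched-off genes, 0.79 in graded rises, 0.82 in graded falls and 0.77 in all 7127 promoters matched. It exceeded 0.6 in 38.5% of switched-on promoters, 62.3% of switched-off promoters and 74% of all. Partly detected genes had 59.5%, a share above that of switched-on and below that of switched-off promoters. Whether nearness to detection bears on CpG content was not tested. The promoters of 2 switched-on genes, the keratin Krt42 and the glutamate transporter Slc1a3, and of 2 switched-off genes, the zinc finger genes Bnc1 and Zic1, are shown for this contrast, 5′ to 3′ along the gene, with each CpG in capitals.
Krt42 (chr11:100269902-100270201, minus strand): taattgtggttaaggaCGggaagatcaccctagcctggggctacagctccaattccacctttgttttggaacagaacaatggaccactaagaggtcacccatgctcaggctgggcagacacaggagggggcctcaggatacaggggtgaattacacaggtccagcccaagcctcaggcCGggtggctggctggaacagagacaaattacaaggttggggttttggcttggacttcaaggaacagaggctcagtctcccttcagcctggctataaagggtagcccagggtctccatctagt
Slc1a3 (chr15:8710758-8711057, minus strand): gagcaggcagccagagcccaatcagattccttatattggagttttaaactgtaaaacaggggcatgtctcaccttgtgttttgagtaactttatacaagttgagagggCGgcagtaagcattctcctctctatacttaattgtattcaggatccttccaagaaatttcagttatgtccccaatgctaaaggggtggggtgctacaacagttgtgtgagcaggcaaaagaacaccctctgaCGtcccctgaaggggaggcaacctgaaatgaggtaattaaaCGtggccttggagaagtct
Bnc1 (chr7:81992250-81992549, minus strand): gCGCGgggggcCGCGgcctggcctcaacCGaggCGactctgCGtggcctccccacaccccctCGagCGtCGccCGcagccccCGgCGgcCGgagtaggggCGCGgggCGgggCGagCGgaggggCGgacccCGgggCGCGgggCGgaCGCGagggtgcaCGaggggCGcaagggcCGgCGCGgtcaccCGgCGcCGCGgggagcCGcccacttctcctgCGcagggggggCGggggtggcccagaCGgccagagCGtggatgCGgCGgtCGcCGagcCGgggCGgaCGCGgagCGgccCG
Zic1 (chr9:91365719-91366018, minus strand): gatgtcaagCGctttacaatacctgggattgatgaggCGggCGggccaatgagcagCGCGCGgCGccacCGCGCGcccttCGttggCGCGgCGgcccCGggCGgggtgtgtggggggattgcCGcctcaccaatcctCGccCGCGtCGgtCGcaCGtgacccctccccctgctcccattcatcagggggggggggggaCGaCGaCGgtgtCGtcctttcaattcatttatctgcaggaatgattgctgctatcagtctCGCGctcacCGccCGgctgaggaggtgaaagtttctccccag
The Krt42 window holds 2 CpGs and that of Slc1a3 holds 3, whereas Bnc1 holds 50 and Zic1 holds 31. They were chosen after their composition was seen, as examples of low and high CpG content.

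Motifs were searched on both strands of the same windows. The octamer core ATGCAAA, part of the sequence bound by POU factors, was present in 11 of 117 switched-on promoters (9.4%), 13 of 403 switched-off promoters (3.23%) and 3.41% of all. The E-box CACGTG was present in 2.56% of switched-on, 11.7% of switched-off and 10.5% of all promoters. The E2F-type sequence GCGGGAA was present in 3.42%, 6.95% and 8.59%. The rates rest on few promoters, with 3 switched-on promoters holding CACGTG and 4 holding GCGGGAA, and motif content follows base composition. Elf3, the epithelial ETS factor, and Gna14, the Gq-class subunit, both switched on, hold ATGCAAA, or TTTGCAT on the other strand, which is in capitals here.
Elf3 (chr1:135258423-135258722, minus strand): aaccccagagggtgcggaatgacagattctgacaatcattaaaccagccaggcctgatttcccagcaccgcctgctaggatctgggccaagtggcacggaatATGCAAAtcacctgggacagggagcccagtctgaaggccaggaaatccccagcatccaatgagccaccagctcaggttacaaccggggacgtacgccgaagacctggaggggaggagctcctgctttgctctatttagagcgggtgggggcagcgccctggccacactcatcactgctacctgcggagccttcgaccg
Gna14 (chr19:16435417-16435716, plus strand): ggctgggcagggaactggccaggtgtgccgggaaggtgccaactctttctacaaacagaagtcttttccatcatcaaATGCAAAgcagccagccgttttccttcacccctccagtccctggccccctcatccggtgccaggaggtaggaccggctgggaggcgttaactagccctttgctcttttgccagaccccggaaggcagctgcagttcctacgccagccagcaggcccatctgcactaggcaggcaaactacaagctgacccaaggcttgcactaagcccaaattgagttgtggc
A match of letters is no evidence that a factor binds there.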

How the data were processed

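Total RNA of 4 GSC lines, 3 gPS lines and an ESC pair was column-purified with DNA digestion on the column and amplified to biotin-labelled cRNA, per the labels' protocols. The deposited table holds a linear signal intensity and a detection p-value per probe for each of the 9 arrays, and BeadStudio 3.2, RMA and lumi are named in the submitters' processing notes. The authors also deposited processed log2-like values, whose log base, centring and direction are not stated, and they served as an alternative. Their columns share 1 median (2.99) and 1 maximum (14.5). They correlate with the values used here at 0.975 on every array, as when 2 scales rank the probes alike. Similar calls under this alternative were therefore close to fixed in advance.

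The intensities of 25697 probes were background-corrected, quantile-normalized and logged with neqc (limma 3.58.1, R 4.3.3, offset 16), which infers the negative controls from the detection p-values. Probes detected (p under 0.01) on at least 2 of 9 arrays were kept (12695), and the probe with the highest mean stood for each gene. A limma model with 1 mean per group was fitted to 9 arrays, and p-values were adjusted over 9488 genes (Benjamini-Hochberg). Adjusted p-values in the text are limma's, and the method was tested on simulated data. Probe symbols came from the platform annotation (1719 probes are unnamed here), and 8746 genes were placed on RefSeq.

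Named genes, outside the pluripotency and germ cell lists, were the 20 brightest switched on, the 20 brightest switched off, the 15 largest graded changes each way with groups that do not overlap, and, in each list described, the switched members and up to 4 largest rises and falls. Families of isoforms were named where calls opposed. The members and lists were chosen with earlier results of these data known. Alternatives were the scaling, background correction, filters, probe choice, detection threshold, array sets and a replicate block. With 1 array per line, the number of arrays limits the precision.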

Additional observations from a re-analysis of the deposited data

Results flagged for a closer look

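Among the 4 GSC arrays, 16 of 199 genes named in the text had 1 array far from the others by Dixon's test, where chance alone flags about 5% of groups. The array was GSC 4 for 13 of them. GSC 1 and GSC 3 lie close together on nearly every gene, which narrows the spread of the other arrays, and the part of this closeness in the count was not tested. GSC 4 stood below the others for Acta2 at 5.06 (7.46 to 7.95 on the other GSC arrays), Etv4 at 5.46 (7.87 to 8.21 on the other GSC arrays) and Foxf1 at 7.27 (8.19 to 8.35 on the other GSC arrays). The same held for Krt27 at 5.09 (6.56 to 6.72 on the other GSC arrays), Ldha at 8.77 (10.63 to 11.01 on the other GSC arrays) and Xlr5a at 6.12 (8.20 to 8.26 on the other GSC arrays). GSC 4 stood above the others for Kdm4c at 4.87 (4.52 to 4.58 on the other GSC arrays), Kdm6b at 7.88 (6.84 to 7.01 on the other GSC arrays) and Pcgf5 at 12.08 (11.78 to 11.83 on the other GSC arrays). The same held for Pdzrn3 at 10.06 (9.29 to 9.41 on the other GSC arrays), Rpl21 at 4.75 (4.51 to 4.55 on the other GSC arrays) and Smc1b at 10.30 (9.40 to 9.49 on the other GSC arrays). The same held for Snrpn at 8.20 (7.59 to 7.65 on the other GSC arrays). Irgm2 stood at 7.49 on GSC 3 against 7.82 to 7.89 on the others. Nanog stood at 4.57 on GSC 1 against 4.42 to 4.44 on the others. Pik3r3 stood at 10.64 on GSC 2 against 9.91 to 9.98 on the others. For Nanog, Kdm4c and Rpl21 all GSC values lie below detection.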

How the results depend on the processing

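With each array scaled to its median, 1539 genes were called up and 4048 down, with 968 graded rises and 2711 graded falls, and the cause was not tested. Asking also for a change of at least 1 on the log2 scale left 1331 up and 1532 down, and keeping only probes detected on all 7 arrays left 1819 down, since fewer genes were tested. With GSC 1 and GSC 3 both left out, an alternative added after seeing the data, 309 genes met the switched-on rule. That rule then asked for fewer silent arrays, and leaving out 1 GSC array at a time gave 193 to 221. The part of signal shared by GSC 1 and GSC 3 in the 309 was not tested. Without this pair, 2005 genes were called up and 2423 down. With the pair averaged, 2218 were called up and 2675 down. Leaving out 1 array at a time gave 2188 to 2420 called up, 2585 to 2911 called down, 1553 to 1772 graded rises and 1607 to 1770 graded falls. It also gave 193 to 232 genes switched on and 576 to 710 switched off. These counts could not fall, since the rule then asked for fewer arrays and kept the 183 and 558 genes by construction. At a detection p of 0.05, 101 of the 183 switched-on and 315 of the 558 switched-off genes were shared, and at 0.001, 98 and 308. Deviations of same-numbered GSC and gPS lines from their group means correlated at 0.0781, -0.0687 and -0.159 for lines 1 to 3. Differently numbered lines were not set beside them, so whether line numbers pair the arrays was not tested. With the line number as a replicate block, 2172 were called up and 2553 down. The change of Sgk3 reversed (0.48 against -3.94) where only probes detected on all 7 arrays were kept, because another probe then stood for the gene. Of 197 called genes named in the text, 190 kept their call under every alternative that tested them, of 19, and the exceptions were Arg2, Bcl2l2, Hoxc9, Ifitm3, Kdm6b, Sgk3 and Zfy1. Most of these genes were named for their class or for large changes in the main fit. Their share is therefore no estimate for all called genes. Signal over background limits the switched classes, since a gene just under detection on 1 array changes class.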
